A study of Homo sapiens with 6 samples.

Results

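Mitosis and cell cycle control genes were examined in the lung carcinoma line Calu-6, an established human cell line, after siRNA against the Delta 2-4 splice variant of TERT, the catalytic subunit of telomerase. The list held 40 named genes of the cell cycle: 9 cyclins, cyclin-dependent kinases (CDKs) and their Cks subunits, 3 CDK inhibitors, 9 mitotic kinases and spindle proteins, 7 kinetochore and spindle checkpoint genes, 10 genes of the anaphase-promoting complex (APC/C), its ubiquitin-conjugating enzymes and substrates with SKP1, and 2 proliferation markers. The genes were chosen by name and not by a value measured here, although earlier results of these data were known at that time. The count table held 10072 genes, and 35 of the 40 had rows in it, while CDC16, CENPF, MKI67, CDKN1A and UBE2S had none and were not analysed here. The cells carried the label WT and received 10 nM siRNA by transfection, 48 h before harvest. The siRNA was a non-silencing control (siControl, 3 libraries) or was directed against the exon junction made when the variant skips its exons (siDelta2-4, 3 libraries). The column names carried the word that the study used for cells with an empty expression vector, and which of the 2 names holds was not tested. The question was which of these genes changed when the variant was targeted. TERT itself had 0 rows in the table, so the knockdown could not be checked in these libraries.

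Passage through the cell cycle is driven by CDKs, which are active only when bound to a cyclin and are held back by CDK inhibitors. Transcripts of many mitotic genes accumulate in G2 and mitosis and are low in G1, so that in a growing culture their level follows the share of cells that are dividing. At the end of metaphase the spindle checkpoint releases the APC/C, a ubiquitin ligase that marks cyclin B and securin for destruction and so lets the chromatids part. In bulk libraries such as these, fewer cells in a phase and less RNA per cell cannot be told apart.

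Libraries are given here in the order of their total counts within a group, highest first, because the labels did not tie the count columns to single samples. The siControl totals were 1106413, 1077555 and 1037468 counts, and the siDelta2-4 totals 1309241, 1183889 and 1070009. The labels did not say whether the libraries of a group came from separate cultures, although the study calls them biological replicates, and p-values measure only the spread between these libraries. On the first principal component of log2 CPM (counts scaled to a common library total), the lowest-total siControl library stood between the groups at -0.36, with the other siControl libraries at -16.9 and -15.2 and the siDelta2-4 libraries between 8.71 and 13.8. Calls were also made without this library. Of 8 markers of a carcinoma line, 6 had rows, and their summed count was 437 to 617 per library. Most of that count came from KRT18 (1124 in all), VIM (987) and KRT8 (824). KRT7 had 41 counts, EPCAM 13 and KRT19 1 count in all, and CDH1 and CDH2 had no row. Leukocyte markers (2 of 6 with rows) summed to 2 to 5 counts per library, fibroblast markers (2 of 6) to 1 to 6, and none of the 5 endothelial markers had a row. All rows held at least 1 siDelta2-4 count, so transcripts found only in siControl were missing from the table.

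Promoter sequences are shown for 4 members because many genes of mitosis are known to share promoter elements. Of the 40 members, 33 had a promoter window in RefSeq on GRCh38.p14, which runs from 250 bases before to 50 bases after the annotated start. Not among the 33 were AURKA, BIRC5, BUB3, CDK2, RACGAP1, TPX2 and UBE2C. The windows were searched on both strands for the cell cycle genes homology region (TTTGAA or TTCGAA, bound by the MuvB core of the DREAM and FOXM1 complexes), for the CCAAT box (CCAAT, bound by NF-Y) and for an E2F motif (TTTCCCGC, TTTGGCGC or TTTCGCGC). The homology region letters were in 16 of the 33 windows (48.5%) and in 16.6% of all 27305 windows. CCAAT was in 24 (72.7%) against 35.7% of all windows, and both together were in 15 (45.5%) against 6.58%. An E2F motif was in 3 (9.09%), those of CDK1, CDC16 and TUBG1, against 2.79%. These matches are descriptions of letters and were not tested for binding. The 250 bases upstream of the start are printed 5′ to 3′ on the plus strand, which is the strand of all 4 genes, with matches to any of the motifs on either strand in capitals. CCNB1 (chr5:69166900-69167149) and CCNB2 (chr15:59104896-59105145) are the B-type cyclins, CKS1B (chr1:154974431-154974680) held 5 CCAAT boxes, more than the other 3 shown, and ANAPC11 (chr17:81890540-81890789) was the member that passed the test below.
CCNB1: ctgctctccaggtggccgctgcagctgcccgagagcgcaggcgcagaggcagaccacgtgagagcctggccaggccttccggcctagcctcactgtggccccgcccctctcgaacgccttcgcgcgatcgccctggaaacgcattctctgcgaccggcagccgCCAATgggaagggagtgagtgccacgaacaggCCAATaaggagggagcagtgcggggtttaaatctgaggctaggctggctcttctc
CCNB2: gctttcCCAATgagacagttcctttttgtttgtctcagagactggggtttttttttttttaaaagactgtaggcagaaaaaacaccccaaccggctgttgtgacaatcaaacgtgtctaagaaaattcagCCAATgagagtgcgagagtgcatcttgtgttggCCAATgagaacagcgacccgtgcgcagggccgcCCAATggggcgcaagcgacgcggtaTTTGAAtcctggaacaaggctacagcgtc
CKS1B: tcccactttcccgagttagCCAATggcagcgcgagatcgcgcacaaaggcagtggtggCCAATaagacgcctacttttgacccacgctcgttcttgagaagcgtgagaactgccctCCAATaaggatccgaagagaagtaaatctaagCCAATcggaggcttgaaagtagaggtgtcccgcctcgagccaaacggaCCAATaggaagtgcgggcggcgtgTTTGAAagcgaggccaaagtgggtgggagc
ANAPC11: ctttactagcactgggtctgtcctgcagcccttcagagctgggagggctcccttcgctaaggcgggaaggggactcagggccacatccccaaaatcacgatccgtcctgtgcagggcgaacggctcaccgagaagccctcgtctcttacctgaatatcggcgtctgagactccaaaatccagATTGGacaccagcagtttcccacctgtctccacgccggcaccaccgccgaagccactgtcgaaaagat
The CCNB2 and CKS1B windows shared a CCAAT box 54 bases before the start and a homology region 29 and 30 bases before it. CCNB1 had CCAAT 87 and 55 bases upstream with no match to the homology region letters in its window. ANAPC11 had 1 CCAAT box, on the minus strand 68 bases upstream. No motif was found in the windows of CDK4, CCND3, CDKN1A, CDKN2A, ANAPC13, ANAPC15, CDC26 and SKP1, which says only that these letters are not there.

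Of the 35 members in the table, 24 had enough counts to be tested and 1 of them was called at an adjusted p under 0.1 (edgeR quasi-likelihood test, Benjamini-Hochberg over all 3888 genes tested). That gene was ANAPC11, which was lower in siDelta2-4, and 0 members were called higher. Over all genes, 504 of 3888 were called, which is 13%, with 7% higher and 5.97% lower. At an unadjusted p under 0.05 there were 3 members (ANAPC11, ANAPC13 and CENPW) and 900 genes in all, and the DESeq2 Wald test, which gave some of the members no adjusted p, called ANAPC11 alone among them. The log2 fold change was above 0 in 9 members and below 0 in 15, with a median of -0.12 against 0.03 over all genes tested. CPM did not overlap between the groups in 5 of the 24: CCNB1, CCNB2 and BUB3 were higher in every siDelta2-4 library, as were 14.1% of all genes tested, and ANAPC11 and CDC20 were lower in every one, as were 11.9%. The precision allowed for a bound: the 95% interval lay inside a 1.5-fold change in both directions for 12 members and inside a 2-fold change for 23, with CDC20 as the exception.

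**Figure D1:**
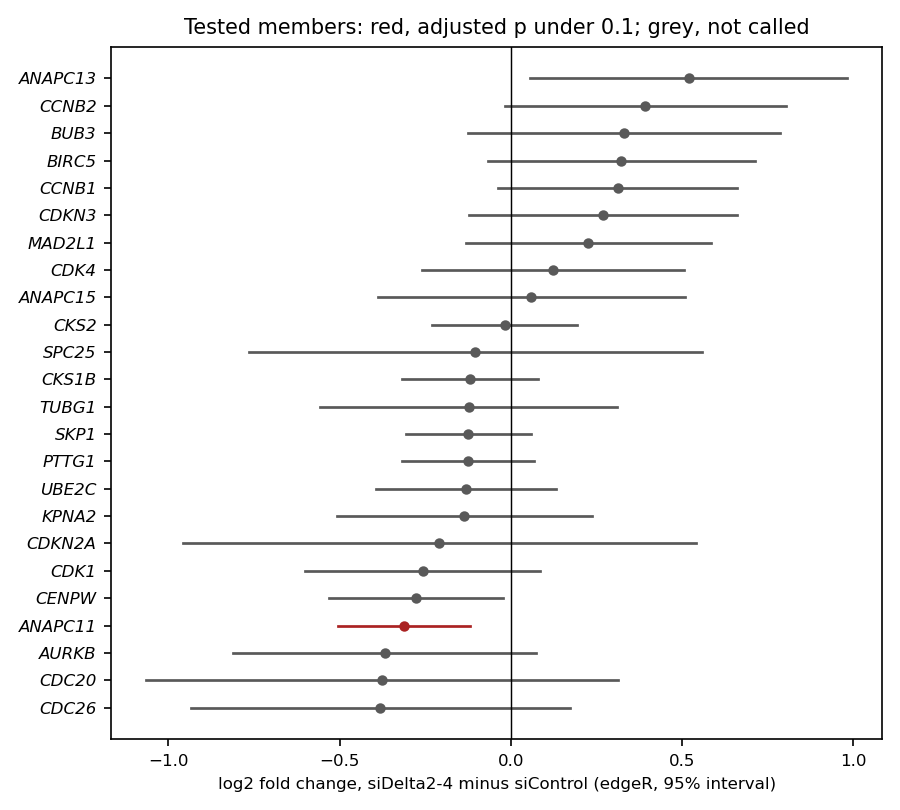
Log2 fold change, siDelta2-4 minus siControl, of the 24 tested members with 95% intervals from edgeR (x axis), ordered by size (y axis). ANAPC11 (-0.31) is the one member called at an adjusted p under 0.1, and the intervals of ANAPC13 and CENPW also leave out 0.

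This count changed when the siControl library between the groups, that of lowest total, was left out. Without it 4 of 25 tested members were called, 1 higher and 3 lower, while 25.4% of all genes were called in the same fit. ANAPC13 was higher by 0.87 (adjusted p = 0.00397), CENPW was lower by a log2 fold change of -0.40 (adjusted p = 0.0148), ANAPC11 stood at -0.36 (adjusted p = 0.00282) and SKP1 at -0.20 (adjusted p = 0.0772, all by edgeR). The members' share of calls was thus below that of all genes with and without this library, and that gap was not tested. The library was singled out by its place between the groups, so leaving it out favours calls, here and below. All genes called rose from 504 to 1041, against 194 to 308 when any other library was left out. The adjusted p of such fits do not allow for that choice.

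**Figure D2:**
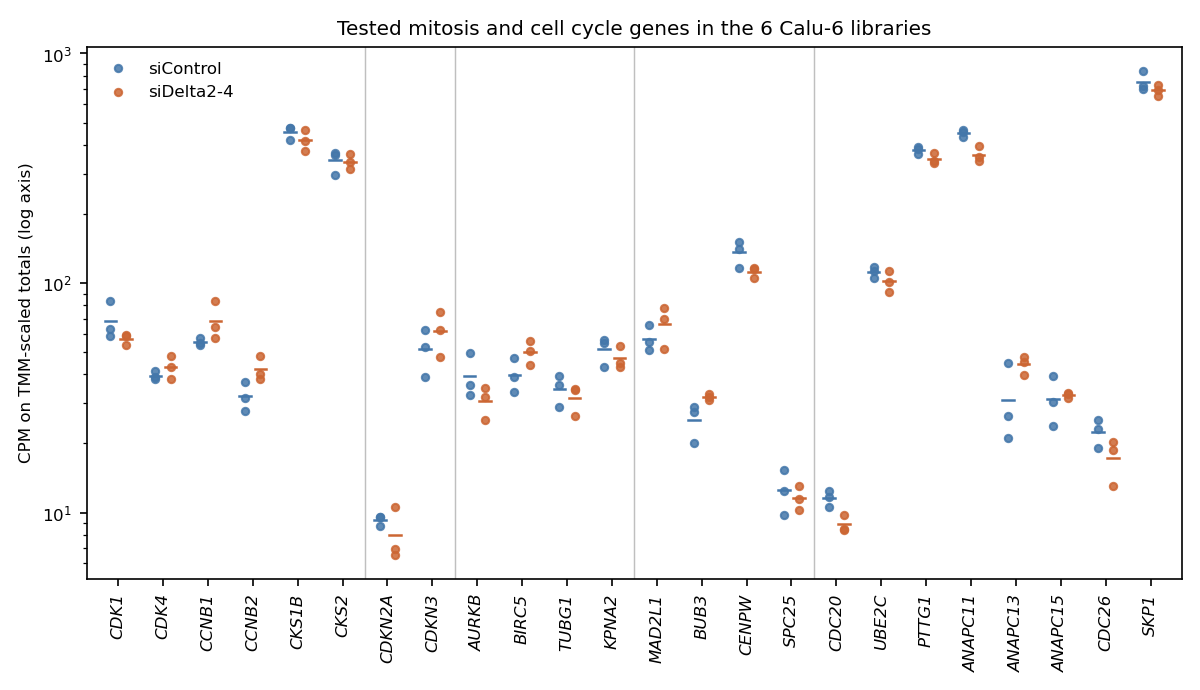
CPM on TMM-scaled totals (y axis, log scale) of the 24 tested members in each of the 6 libraries, grouped by role from cyclins on the left to the APC/C on the right. Points are libraries and bars are group means, and only CCNB1, CCNB2, BUB3, ANAPC11 and CDC20 have groups that do not overlap.

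Cyclins and CDKs set the pace of the cycle. None of the 6 tested genes of this role was called, with 3 log2 fold changes above 0 and 3 below. CCNB1 and CCNB2 encode the B-type cyclins that activate CDK1 at the entry into mitosis. CCNB1 (chr5:69167135-69178245, plus strand) was at 57.5, 54.7 and 53.6 CPM in siControl and 57.6, 83.7 and 64.6 CPM in siDelta2-4. The groups of CCNB1 did not overlap, but the lowest siDelta2-4 library lay just above the highest siControl library, and the log2 fold change was 0.31 (SE 0.170, adjusted p = 0.275). CCNB2 (chr15:59105126-59125045, plus strand) was at 37.0, 31.6 and 27.8 CPM in siControl and 38.4, 47.9 and 40.3 CPM in siDelta2-4. It was also higher in every siDelta2-4 library, and its log2 fold change was 0.39 (SE 0.20, 95% interval -0.02 to 0.80, adjusted p = 0.236).

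CDK1, the kinase that both cyclins bind, went the other way without passing the test. It was at 63.4, 58.5 and 83.3 CPM in siControl and 59.1, 53.6 and 59.0 CPM in siDelta2-4, a difference of -0.26 on the log2 scale (SE 0.167, adjusted p = 0.370). Its high value came from the lowest-total siControl library, and the other libraries of both groups overlapped. CDK4, the kinase that works with D-type cyclins in G1, was at 39.0, 38.4 and 41.2 CPM against 38.4, 47.9 and 43.1 CPM (log2 fold change 0.12, SE 0.187, adjusted p = 0.748). CKS1B and CKS2 are small paralogous subunits that bind CDKs. CKS1B was at 473, 472 and 421 CPM in siControl and 415, 377 and 466 CPM in siDelta2-4 (log2 fold change -0.12, SE 0.0968, adjusted p = 0.487). CKS2 was at 360, 370 and 297 CPM in siControl and 338, 314 and 363 CPM in siDelta2-4 (log2 fold change -0.02, SE 0.103, adjusted p = 0.944). For these well counted genes the 95% interval of the fold was 0.802 to 1.06 for CKS1B and 0.853 to 1.14 for CKS2. CDK2, CCNA2 and CCND3 had 10, 7 and 2 counts over all libraries and were not tested.

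Of the CDK inhibitors, CDKN1A had no row. CDKN2A, which encodes p16 and, from another reading frame, p14ARF, was at 8.77, 9.59 and 9.58 CPM in siControl and 6.91, 10.6 and 6.55 CPM in siDelta2-4 (log2 fold change -0.21, SE 0.365, adjusted p = 0.790). Its 58 counts gave the widest error of the tested members. CDKN3, a phosphatase that acts on CDKs and is itself a gene of late cycle phases, was at 39.0, 62.3 and 52.7 CPM in siControl and 62.2, 74.8 and 47.8 CPM in siDelta2-4 (log2 fold change 0.27, SE 0.191, adjusted p = 0.418). Both genes overlapped between the groups.

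Mitotic kinases and spindle proteins were counted sparsely, and 4 of 9 could be tested with 0 called. AURKB, the kinase of the chromosomal passenger complex, was at 36.1, 32.6 and 49.8 CPM in siControl and 25.3, 34.9 and 31.8 CPM in siDelta2-4 (log2 fold change -0.37, SE 0.215, adjusted p = 0.314). BIRC5 encodes survivin, a partner of AURKB in that complex. It was at 39.0, 33.6 and 46.9 CPM in siControl and 43.7, 50.4 and 56.2 CPM in siDelta2-4, a difference of 0.32 on the log2 scale (SE 0.190, adjusted p = 0.318). The 2 partners thus had opposite signs, each within the spread between libraries, and their groups overlapped. TUBG1, the gamma-tubulin that nucleates microtubules, was at 36.1, 28.8 and 39.3 CPM against 34.5, 34.1 and 26.2 CPM (log2 fold change -0.12, SE 0.211, adjusted p = 0.779). KPNA2, a nuclear import receptor whose release by Ran frees spindle factors, was at 54.6, 43.2 and 56.5 CPM against 43.0, 44.7 and 53.4 CPM (log2 fold change -0.14, SE 0.181, adjusted p = 0.705). Of those not tested, AURKA, a centrosomal kinase, was counted 13, 11 and 9 times in siControl and 10, 8 and 8 times in siDelta2-4. PLK1, which drives mitotic entry and exit, had 11, 6 and 6 counts against 6, 9 and 6. RACGAP1, KIF20A and TPX2 had 18, 5 and 2 counts in all.

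Among kinetochore and checkpoint genes, 4 of 7 were tested and none was called. MAD2L1 and BUB3 are parts of the checkpoint that holds the APC/C until all chromosomes are attached. MAD2L1 was at 65.3, 50.8 and 55.6 CPM in siControl and 69.8, 78.0 and 51.5 CPM in siDelta2-4 (log2 fold change 0.23, SE 0.174, adjusted p = 0.464). BUB3 was at 27.3, 20.1 and 28.7 CPM in siControl and 33.0, 30.9 and 31.8 CPM in siDelta2-4. Its groups did not overlap, but the difference did not pass the test (log2 fold change 0.33, SE 0.222, adjusted p = 0.394). CENPW, a histone-fold protein of the inner kinetochore, was at 141, 151 and 116 CPM in siControl and 117, 105 and 115 CPM in siDelta2-4. The lowest-total siControl library lay among the siDelta2-4 values, and with all libraries the log2 fold change was -0.28 (SE 0.124, adjusted p = 0.170). SPC25, of the NDC80 complex that binds microtubules, was at 9.75, 12.5 and 15.3 CPM against 11.5, 13 and 10.3 CPM (log2 fold change -0.10, SE 0.322, adjusted p = 0.884). ZWINT was counted 16, 9 and 11 times in siControl and 9, 8 and 8 times in siDelta2-4 and was not tested, nor was NUF2, with 13 counts in all. Among the members left out by the filter, 3 had a lower CPM in every siDelta2-4 library: ZWINT, AURKA and CDK2. How many of all genes left out by the filter did so was not counted, so this is not a result about the members. In an edgeR fit with no filter on low counts their log2 fold changes were -0.74, -0.56 and -1.34, with adjusted p of 0.429, 0.653 and 0.710. Others were above 0 in that fit: CCND3 (2.57), TPX2 (2.57), TOP2A (1.80), CCNA2 (0.98) and RACGAP1 (0.09). PLK1 (-0.35), KIF20A (-0.70) and NUF2 (-0.005) were below 0, and none of the 11 was called.

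The APC/C and its partners were the best counted role, with 8 of 10 members in the table, all 8 tested and 1 called. ANAPC11 (chr17:81890790-81900991, plus strand, GRCh38) encodes the RING subunit that brings the ubiquitin-conjugating enzyme to the complex. It was at 464, 454 and 432 CPM in siControl and 353, 339 and 397 CPM in siDelta2-4, so every siDelta2-4 library lay below every siControl library. The means were 450 ± 16.4 and 363 ± 30.3 CPM (SD, n = 3 each). The log2 fold change was -0.31 (SE 0.0941, 95% interval -0.50 to -0.12, adjusted p = 0.0396), a fold of 0.806. Without the siControl library of middle total the adjusted p was 0.136, without the siDelta2-4 library of highest total 0.168 and without that of middle total 0.197, with log2 fold changes of -0.31, -0.29 and -0.26. With a trend on transcript length removed it was -0.22 (adjusted p = 0.101).

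The small subunit ANAPC13 lay in the other direction. It was at 26.3, 21.1 and 45.0 CPM in siControl and 39.9, 45.5 and 47.8 CPM in siDelta2-4 (log2 fold change 0.52, SE 0.226, adjusted p = 0.156). The lowest-total siControl library was at the siDelta2-4 level, and the other 2 siControl libraries were below all of the siDelta2-4 libraries. ANAPC15, which promotes the turnover of the checkpoint complex on the APC/C, was at 30.2, 39.3 and 23.9 CPM against 31.5, 33.3 and 32.8 CPM (log2 fold change 0.06, SE 0.218, adjusted p = 0.906). CDC26, a small subunit that steadies CDC16, was at 25.3, 23.0 and 19.2 CPM against 13, 20.3 and 18.7 CPM (log2 fold change -0.38, SE 0.270, adjusted p = 0.418). The 4 subunits of the complex therefore did not share a sign.

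Of the factors that work with the complex, CDC20, its activator in metaphase, was at 11.7, 12.5 and 10.5 CPM in siControl and 8.44, 9.75 and 8.43 CPM in siDelta2-4. The groups did not overlap, but with 68 counts in all the interval was wide (log2 fold change -0.38, SE 0.336, adjusted p = 0.546). UBE2C, the enzyme that starts the ubiquitin chains, was at 117, 113 and 105 CPM against 113, 91.8 and 101 CPM (log2 fold change -0.13, SE 0.128, adjusted p = 0.576). PTTG1 encodes securin, the substrate whose loss frees separase. It was at 390, 383 and 364 CPM in siControl and 334, 340 and 369 CPM in siDelta2-4, with 1 siDelta2-4 library inside the siControl range (log2 fold change -0.13, SE 0.0939, adjusted p = 0.443). SKP1, the adaptor of the SCF ubiquitin ligases, was at 837, 724 and 699 CPM in siControl and 651, 696 and 729 CPM in siDelta2-4 (log2 fold change -0.12, SE 0.0887, adjusted p = 0.421). The proliferation marker TOP2A, the topoisomerase that untangles chromatids, had 1 count, in siDelta2-4.

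Counts were also pooled, since single members were often sparse. Over the 35 members the pool was 3185, 3163 and 3151 CPM of library totals in siControl and 2948, 3128 and 3192 in siDelta2-4. The means were 3166 ± 17.3 and 3089 ± 127 (SD, n = 3 each), a difference of -77.0 CPM, or -2.43%, and the groups overlapped. The 95% Wilson interval of one library, which covers counting error only, ran from 2856 to 3042 CPM in the library with the lowest pool, the siDelta2-4 library of highest total. On TMM-scaled totals the difference was -222 CPM, with 3131 to 3436 in siControl and 2961 to 3199 in siDelta2-4, and the groups overlapped there too. The 5 members with the most counts (SKP1, CKS1B, ANAPC11, PTTG1 and CKS2) held 71.5% of the 21179 member counts and were at 2297 ± 61.0 and 2182 ± 124 CPM, while the other 30 were at 869 ± 47.4 and 907 ± 64.8.

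By role, the pool of the APC/C with SKP1 was 1763, 1712 and 1709.9 CPM in siControl and 1536, 1637 and 1701 in siDelta2-4. Its groups did not overlap, by a small gap, with a change of -6.01% in the mean. On TMM-scaled totals, the scale of the single-gene values, the same pool was 1902, 1769 and 1699 CPM against 1543, 1575 and 1704 CPM, so the groups overlapped, with a change of -10.2% in the mean. Cyclins, CDKs and Cks subunits were at 962 ± 29.9 and 982 ± 49.3 CPM, kinetochore and checkpoint genes at 236 ± 5.94 and 234 ± 16.5, mitotic kinases and spindle proteins at 181 ± 30.9 and 178 ± 13.8, and CDK inhibitors at 58.8 ± 13.1 and 70.5 ± 17.3. All of these 4 roles overlapped between the groups on both scales. On TMM-scaled totals their means were 996 and 972, 245 and 231, 187 and 176, and 60.7 and 69.6 CPM, in the same order. The difference of the cyclin role thus changed sign between the scales. No test was made on the pools.

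**Figure D3:**
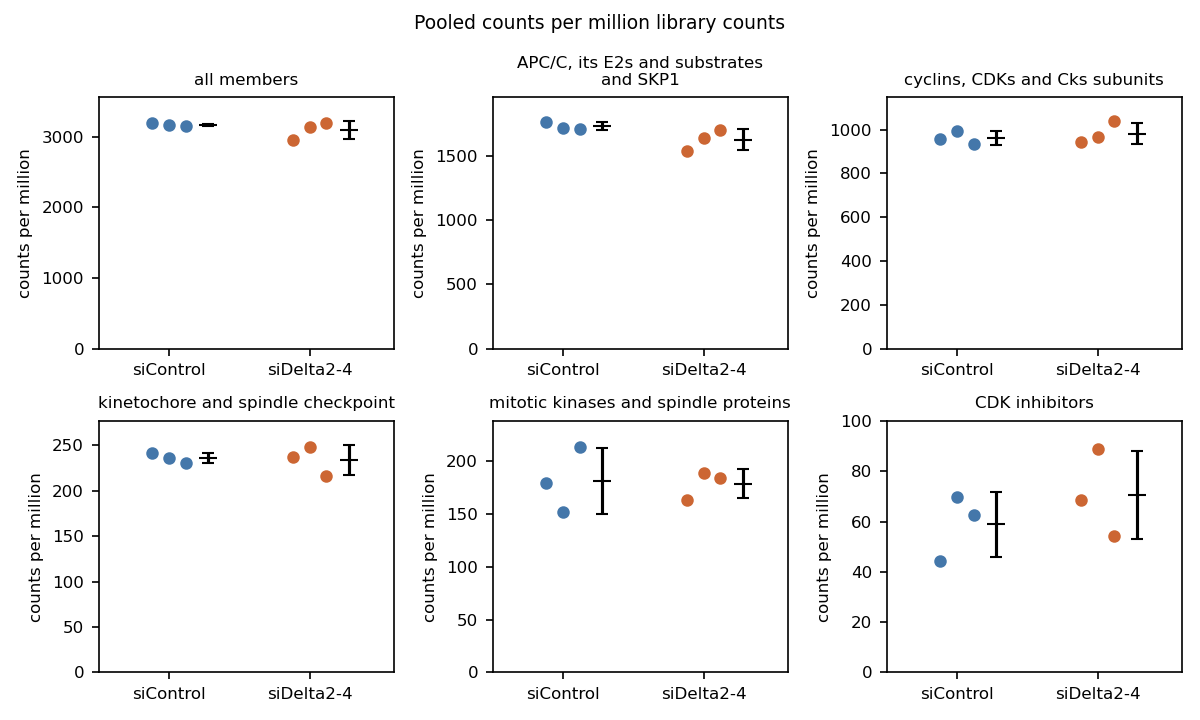
Pooled counts of all members and of each role as CPM of library totals (y axis), with the siControl and siDelta2-4 libraries as points in the order of their totals. Bars show the mean and SD of the 3 libraries, and the APC/C panel is the one where the groups do not overlap (1709.9 at the lowest in siControl, 1701 at the highest in siDelta2-4), which does not hold on TMM-scaled totals (1699 and 1704).

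Fold changes in these libraries moved with transcript length. The length of a gene was taken as the mean deposited length of its models, weighted by their counts. Over all 3888 genes tested Spearman's rho between length and log2 fold change was 0.326, and over the 24 members it was 0.364, a description over genes of the same libraries. The 10 members under 1000 bases had a median of -0.13 on the log2 scale, and 8 of them were below 0. The 14 members over 1000 bases had a median of 0.01, and 7 were above 0. Over all genes the medians were -0.08 and 0.14. ANAPC11 was short, at 670 bases, while BUB3 and MAD2L1 were at 5473 and 4991 bases. With a trend on length removed from each library 1 member was called, but it was SKP1 and no longer ANAPC11: SKP1, with a length of 7218 bases, stood at -0.27 (edgeR adjusted p = 0.0563). The part of length in these changes was not tested further.

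**Figure D4:**
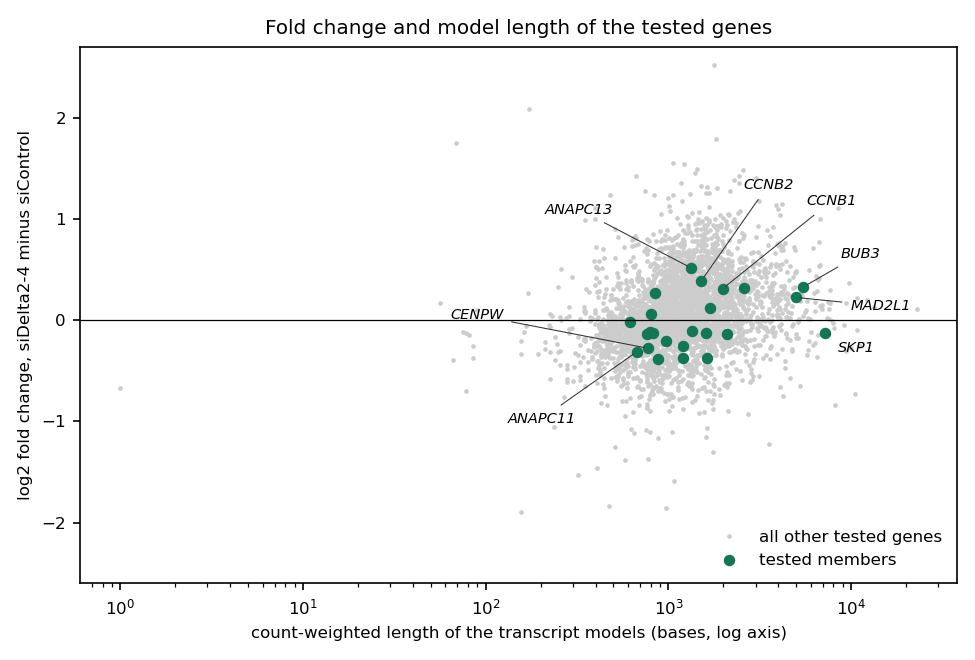
Log2 fold change, siDelta2-4 minus siControl (y axis), against the count-weighted length of each gene's models (x axis, log scale) for the tested members in green and all other tested genes in grey. Short members such as ANAPC11 (670 bases) lie mostly below 0, and Spearman's rho over the 24 members is 0.364.

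The long reads were assigned to transcript models, and the 35 members had 127 of them, of which 12 were outside the annotation. Models that matched the annotation in full held 90% of the member counts, against 59.5% of the counts of all annotated genes. CDK1 was an exception: 85.4% of its 419 counts were on an unannotated 8-exon model of 1210 bases that joins known splice sites in a new combination, as 83.9% ± 1.03 of siControl and 86.8% ± 2.64 of siDelta2-4 counts (mean ± SD over 3 libraries each). The annotated CDK1-201 held 12 counts.

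Of 42 member models tested, 1 was called, against 6.91% of all 6768 models. It was an unannotated SKP1 model of 4 exons and 402 bases that matches only the beginning of the annotated transcript. The siControl libraries gave it 215, 111 and 138 counts and the siDelta2-4 libraries 117, 122 and 99, which is -0.64 on the log2 scale (SE 0.167, edgeR adjusted p = 0.0262). Without the siControl library of highest total, which was the high one, 0 member models were called. The main SKP1 model, SKP1-202 with 6 exons and a deposited length of 9386 bases, did not pass the test (log2 fold change 0.06, SE 0.0828). As a share of SKP1 counts the short model was 25.0%, 14.7% and 18.9% in siControl and 13.8%, 14.3% and 12.7% in siDelta2-4, and SKP1-202 was 66.4%, 75.6% and 71.8% against 79.1%, 79.2% and 78.7%. Neither share overlapped between the groups, though the gap of the short model was small (14.7% against 14.3%). How often the shares of other models did not overlap was not computed, and the test of model usage below did not call SKP1.

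Usage of models within a gene was tested for 10 members with more than 1 model, and 0 were called at an adjusted p under 0.1 in the gene-level test of diffSpliceDGE, against 0.618% of the 1132 genes tested. SKP1 (adjusted p = 0.182) and KPNA2 (adjusted p = 0.321, both by diffSpliceDGE) were the 2 with an unadjusted p under 0.05. The 10-exon KPNA2 model held 46.4%, 44.4% and 11.9% of KPNA2 counts in siControl and 19.6%, 12.7% and 19.3% in siDelta2-4. The 11-exon model KPNA2-201 held 39.3%, 48.9% and 81.4% against 75.0%, 76.4% and 73.7%. The lowest-total siControl library was again apart from the other 2. Without that library 7 member models were called, against 15.3% of all models in the same fit. They were the 4-exon SKP1 model, both of the KPNA2 models above (log2 fold changes of -1.43 for the 10-exon model, adjusted p = 0.00300, and 0.74 for KPNA2-201, adjusted p = 0.0484, by edgeR), and 1 model each of ANAPC11, ANAPC13, BIRC5 and CENPW.

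**Figure D5:**
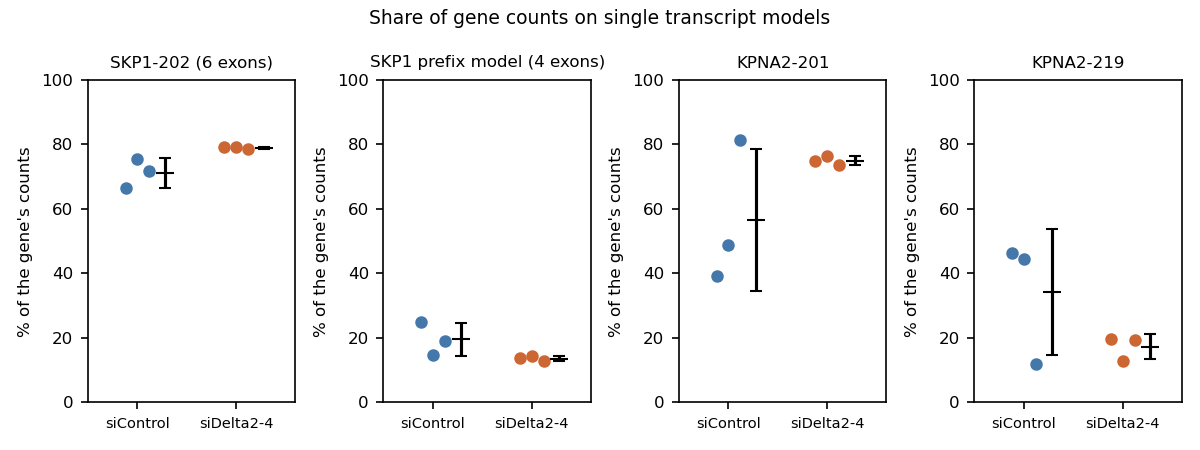
Share of the counts of SKP1 and KPNA2 on single transcript models (y axis, percent of the gene's counts) in each siControl and siDelta2-4 library, ordered by total count. Bars show the mean and SD of 3 libraries: the 4-exon SKP1 model is at 19.5% ± 5.19 and 13.6% ± 0.793, and 1 siControl library of KPNA2 lies apart from the other 2.

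Some members share part of their ground with other genes, and the sources used here did not state how reads were given a strand. The table held 1061 models of an antisense class, with 7.98% of all counts, so models carried a strand. Whether reads of such pairs were split correctly was not tested. SKP1 (chr5:134148935-134176964, minus strand) overlaps TCF7 on the opposite strand over 2931 bases. TCF7, a transcription factor known from T cells, held 4379 counts beside the 4827 of SKP1, split as 803, 675 and 660 in the siControl libraries and 815, 802 and 624 in the siDelta2-4 libraries, and its log2 fold change was -0.15 (SE 0.0922, edgeR adjusted p = 0.35). The source of the TCF7 counts was not tested, and the leukocyte markers with rows, CD68 and LYZ, are not markers of T cells. ANAPC13 overlaps CEP63 on the opposite strand, with 187 counts and a difference of 0.63 on the log2 scale (SE 0.262, adjusted p = 0.141) beside 0.52 for ANAPC13. TSPAN31 opposite CDK4 held 313 counts (log2 fold change 0.04), and LRTOMT opposite ANAPC15 held 249 (-0.08). Among retrocopies, CDC26P1 held 175 counts, more than the 132 of CDC26 itself, and its log2 fold change was 0.00 (SE 0.239, adjusted p = 0.998). CKS1BP2 held 81 counts beside 2920 of CKS1B, and reads of near-identical copies may be split between them.

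Other genes of the same pathways gave a wider view. Apart from the members, 165 genes were listed, of which 96 had rows, 30 were tested and 4 were called, 1 higher and 3 lower, beside the 13% called over all genes. SKA2, of the complex that couples kinetochores to microtubules, rose from 51.7, 52.7 and 51.7 CPM in siControl to 106, 99.9 and 93.6 CPM in siDelta2-4 (log2 fold change 0.94, SE 0.149, edgeR adjusted p = 0.000185). A gene on its opposite strand, ENSG00000224738, moved with it, with 325 counts beside 523 of SKA2 and a difference of 1.08 on the log2 scale (adjusted p = 0.000377). Whether reads of this pair were split correctly was not tested either. CDCA3, which serves in the destruction of the mitotic inhibitor WEE1, fell from 41.7 ± 7.46 to 26.5 ± 3.92 CPM (log2 fold change -0.66, SE 0.213, adjusted p = 0.0540). CENPX, a histone-fold partner in the same complex as CENPW, fell from 102 ± 9.80 to 75.5 ± 8.63 CPM (-0.44, SE 0.142, adjusted p = 0.0551). CDK2AP2, named for its likeness to a CDK2-associated protein, fell from 52.6 ± 9.80 to 34.8 ± 3.09 CPM (-0.59, SE 0.192, adjusted p = 0.0551, SD and n = 3 throughout). The 3 lower calls were lost on library totals alone, with adjusted p of 0.107, 0.124 and 0.118, whereas SKA2 was called there too. Without the lowest-total siControl library CDK2AP2 was not called (log2 fold change -0.46, adjusted p = 0.1002), while SKA2, CDCA3 and CENPX were. In that fit 7 list genes were called, beside 25.4% of all genes, and the share of tested list genes was not computed. The other 4 list genes called then by edgeR were CBX5 (0.29, adjusted p = 0.0171), PRIM1 (1.16, adjusted p = 0.0460) and CDC23 (1.22, adjusted p = 0.0640) higher, and DTL (-0.16, adjusted p = 0.0953) lower. These 4 are named because leaving out a library changes their calls, which was seen after their values, and CDC23 was also called without the siDelta2-4 library of lowest total. DTL held 20600 counts over all libraries, beside 21179 for all 35 members. Whether other transcripts at its locus gave these counts was not tested. CDCA3 and CENPX were not called without the siControl library of middle total or without the siDelta2-4 library of highest or of middle total, and CDK2AP2 was not called without the siControl library of middle total or the siDelta2-4 library of middle or of lowest total. SKA2 was called with each library left out.

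By list and with all libraries, G1/S genes had 9 tested of 43, 0 called and a median log2 fold change of -0.08. Other G2/M genes had 6 tested of 40, with 1 lower and a median of 0.01, and other kinetochore and checkpoint genes had 6 tested of 27, with 1 higher, 1 lower and a median of -0.31. Other APC/C and SCF genes had 4 tested of 18, 0 called and a median of 0.01. Other genes of the cyclin, CDK and RB pathway had 3 tested of 25, with 1 lower and a median of 0.16. Of 21 targets of p53, 8 had rows, 2 were tested and 0 were called. Without the lowest-total siControl library, the additional calls named above fell on 2 G1/S genes (DTL and PRIM1), 1 other G2/M gene (CBX5) and 1 gene of the APC/C and SCF list (CDC23). The counts of 0 for the first and the last of these lists thus changed without that library. They also changed with the length trend removed and all libraries kept, where FEN1 (G1/S) and RBX1 (APC/C and SCF) were called. CDC23 was called without the siDelta2-4 library of lowest total as well. At an unadjusted p under 0.05 and with all libraries, the lists gave 2 G1/S genes, 2 other G2/M genes, 2 kinetochore genes, 0 APC/C and SCF genes, 1 cyclin pathway gene and 0 targets of p53. These came from 30 tested list genes, and over all genes 900 of 3888 passed that limit. The lists were small after the filter on low counts, and most cell cycle genes outside the members were not tested at this depth.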

How the data were processed

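The authors deposited 1 table of unnormalised counts: the number of long cDNA reads that fell on each transcript model, beside the length of the model in bases. Per the labels and the study's methods, the authors prepared PCR-cDNA libraries, sequenced them together on 1 flow cell, aligned reads to GRCh38.p14 with minimap2 2.14 (SAMtools 1.13), and passed them through TranscriptClean and TALON with the Gencode 44 annotation. The authors' filter asked for at least 5 reads in 3 samples, and all 6398 unannotated models had at least 5 counts in every siDelta2-4 library. The submitters' processing notes gave the versions. Every count column was used.

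Counts were summed per gene and tested across the whole table by the quasi-likelihood method of edgeR 4.0.16 (R 4.3.3), after filterByExpr and TMM scaling, with two-sided p-values adjusted by Benjamini-Hochberg and a limit of 0.1. The single models were tested alike, and usage with diffSpliceDGE. The SE was taken from the fold change and the F statistic. Scripts were tested on simulated counts. Every member is named, and other genes only if called on a list, opposite a member or its retrocopy. Members and lists were chosen with earlier results of these data known. The alternatives were DESeq2 1.42.0 and its size factors, library totals, TMM computed with ribosomal protein and mitochondrial genes left out, 2 other filters on low counts, a limit of 0.05, a loess trend on length removed (span 0.4), known models alone, one row rule for both groups, a block on the column number, and each library left out. Totals of 1037468 to 1309241 counts per library limited the test to 3888 of 10072 genes.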

Additional observations from a re-analysis of the deposited data

How the results depend on the processing

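The count of 1 member called held under every alternative that kept all 6 libraries, though with the length trend removed the gene was SKP1, and with one library left out it ranged from 0 to 4 (0 without the siControl library of middle total, the siDelta2-4 library of highest total or that of middle total, and 4 without the siControl library of lowest total). With DESeq2 the tested members CCNB2, CDKN2A, AURKB, TUBG1, BUB3, SPC25, CDC20, ANAPC13, ANAPC15 and CDC26 had no adjusted p and could not be called. Counts of all genes called were 254 with DESeq2, 304 at an adjusted p under 0.05, 252 with known models alone and 194 to 1041 with one library left out, against 504. Other cell cycle genes called were 2 with DESeq2 (which gave CDCA3 no adjusted p), 1 on library totals, 1 at an adjusted p under 0.05 and 1 to 7 with one library left out, against 4. With the length trend removed 6 were called, FEN1 and RBX1 beside the same 4. Member models called were 0 to 7 with one library left out, against 1, and the pooled difference was -222 CPM on TMM-scaled totals against -77.0. The TMM scale for the pool of the APC/C role was added after seeing the data and gave -183 CPM against -104. With the number in the column names as a replicate block, 299 genes and 2 other cell cycle genes were called and ANAPC11 remained called (adjusted p = 0.0745). The block rests on a number alone: deviations of same-numbered libraries correlated at 0.04, -0.14 and -0.08, so the numbers were not taken as pairs.

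The fold changes that changed sign were near 0: CKS2 was at 0.051 on library totals and 0.081 with the length trend removed, CDK4 was at -0.044 with the length trend removed, and with one library left out CKS2 ranged from -0.13 to 0.037, SPC25 from -0.27 to 0.045 and ANAPC15 from -0.12 to 0.26. Of 462 comparisons of a named gene with an alternative, 428 kept direction and side of the threshold, 23 lost the call, 4 gained it and 7 changed sign. Why these comparisons changed was not tested. Only ANAPC11, SKA2, CDCA3, CENPX and CDK2AP2 were called at first and could lose a call, so 462 is not the base for the lost calls. Library totals moved the median log2 fold change of all genes from 0.03 to 0.09, and dropping the filter on low counts moved it to 0.19. Depth limits the result: 11 members had 1 to 61 counts in all.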
